A study of Mus musculus with 3 samples.

Results

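Smad proteins carry the signal of TGF-β from the cell membrane to the nucleus, and 10 genes for Smads and for the proteins that restrain them were examined among the 15554 protein coding genes of the table. They were chosen by name as the receptor-activated Smads (*Smad2* and *Smad3*), the common-mediator Smad (*Smad4*), the inhibitory Smads (*Smad6* and *Smad7*), the Ski corepressors (*Ski* and *Skil*), the Smurf ubiquitin ligases (*Smurf1* and *Smurf2*) and *Pmepa1*. The list was made with earlier results of these data known. All 10 were found in the table. RNA-seq was performed on NIH3T3, an established line of mouse embryonic fibroblasts, after 24 h of stimulation with 100 ng/mL GDF15 or 4 ng/mL TGF-β, or without a factor (CTRL). All cells were kept in serum-free medium during these 24 h and, by the study's methods, for 24 h before them. RNA of 3 samples was pooled for each treatment, and 1 library was sequenced per treatment, so the differences could not be checked between replicates and were not tested. These were bulk samples, in which fewer cells of a type and less RNA per cell cannot be told apart.

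Activated TGF-β receptors phosphorylate Smad2 and Smad3, which bind Smad4, enter the nucleus and regulate transcription together with other DNA binding factors. Smad7 and Smad6 block this step at the receptors, and Ski and Skil (also called SnoN) hold Smad target genes in a repressed state. Smurf1 and Smurf2 mark Smads and receptors for degradation, and Pmepa1 is a membrane protein that binds Smad2 and Smad3 away from the receptor. Several of the inhibitors are themselves known TGF-β target genes, which is why they are described as negative feedback. GDF15 is a distant member of the TGF-β family.

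**Figure D1:**
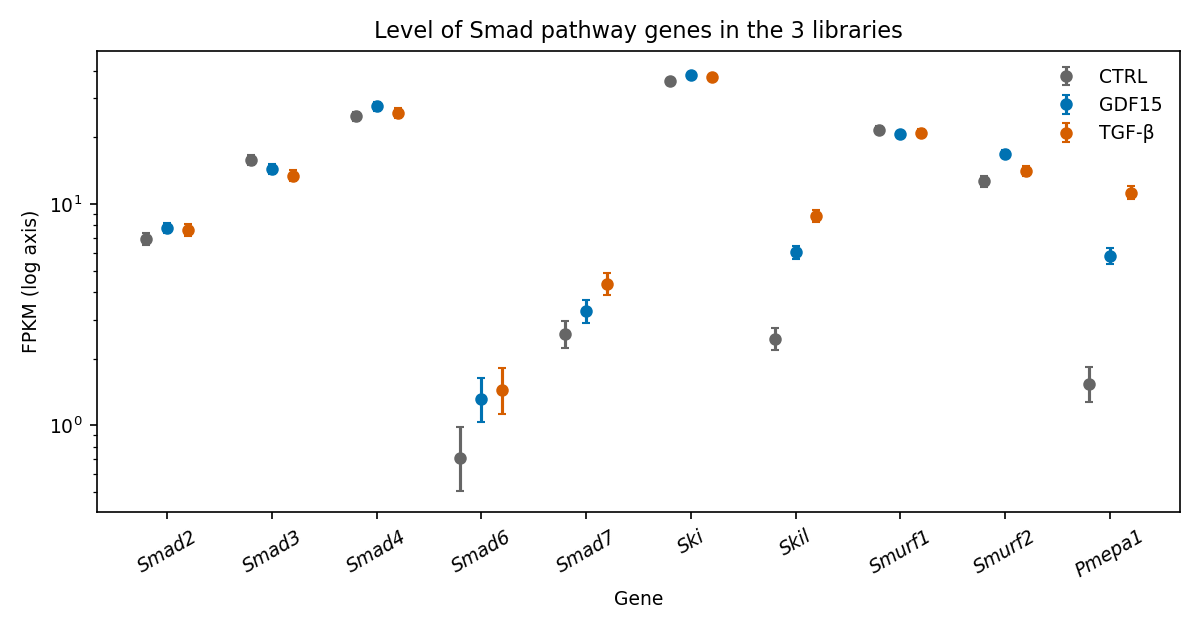
Level of the 10 genes in the CTRL (grey), GDF15 (blue) and TGF-β (orange) libraries, with FPKM on a log axis. Points are single libraries and bars are 95% counting intervals. *Pmepa1* and *Skil* are lowest in CTRL and highest in TGF-β, whereas the 3 points of *Ski*, *Smad4* and *Smurf1* lie close together.

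The 2 genes that passed the 2-fold criterion were inhibitors of the pathway, *Pmepa1* and *Skil*, and both rose with each stimulus. The call of *Skil* with GDF15 was close to the threshold (1.04) and was lost when a trend with transcript length was removed (0.93). The level of *Pmepa1* in FPKM was 1.53 for CTRL, 5.83 with GDF15 and 11.2 with TGF-β. That of *Skil* was 2.45, 6.07 and 8.86 in the same order. The genes for the signal transducing Smads did not pass the criterion in any comparison, and neither did those for the Smurfs, *Ski* or the inhibitory Smads.

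FPKM is the number of fragments per kilobase of transcript, scaled to the mapped fragments of the library, so levels of different genes can be compared per length. A change is the difference of log2(FPKM + 1) between 2 libraries, which is smaller than the log2 ratio where FPKM is low, and a gene was called when the change exceeded 1 in absolute value (2-fold). Each change was also set against the local spread, a scaled median absolute deviation of the changes of genes with a like mean level. The local spread describes how far genes of like level lie apart and is not a replicate error. Numbers of fragments were estimated from the steps of low FPKM, which put the depth between 17700000 and 21650000 fragments per library. Intervals given with a ratio of FPKM are 95% intervals from these numbers and cover counting error only.

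Fibroblast markers were expressed in all 3 libraries. Of 10 fibroblast markers, 8 had an average FPKM of 1 or more (all but *Lum* and *Fap*), with a summed FPKM of 8610 to 8962. The summed FPKM of 4 epithelial, 4 endothelial and 4 muscle markers stayed at or below 0.735 in each library, with *Epcam* and *Myod1* at 0. Of 4 leukocyte markers, *Cd68* and *Cd14* had an average FPKM of 1 or more, and the list summed to 6.26 to 7.49. The part of such cells in the values of the 10 genes was not tested.

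The receptor-activated and common-mediator Smads differed little between libraries. *Smad2* (chromosome 18, 76241580 to 76310963, plus strand, GRCm38) had an FPKM of 6.93 in CTRL, against 7.80 with GDF15 and 7.63 with TGF-β. Its change was 0.15 with GDF15 and 0.12 with TGF-β, less than 1 local spread from the median of genes of like level in either case (0.81 and 0.95). CTRL was the lowest of the 3 libraries, and the others were close to it. *Smad4* (chromosome 18, 73639009 to 73703780, minus strand) encodes the partner that both receptor-activated Smads share. Its FPKM was 24.8 for CTRL, 27.6 with GDF15 and 25.7 with TGF-β, with changes of 0.15 and 0.05. The ratio to CTRL was 1.11 (1.04 to 1.19) for GDF15 and 1.04 (0.962 to 1.11) for TGF-β, so the counting interval of the latter includes 1.

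*Smad3* was one of the 2 genes with a lower level in both stimulated libraries than in CTRL, the other being *Smurf1*. *Smad3* lies on chromosome 9 (63646767 to 63757994, minus strand), and its FPKM was 15.9 in CTRL, against 14.4 with GDF15 and 13.4 with TGF-β. The changes were -0.13 and -0.23, and the ratios of FPKM were 0.908 (0.845 to 0.977) and 0.846 (0.782 to 0.914). Both counting intervals lie below 1, but the changes were within 1 local spread of the local median (-0.38 and -0.76 spreads). The sign stayed negative in both comparisons under upper quartile scaling and after removal of trends with expression, length, or length and GC content. The other settings, a pseudocount or a minimum mean FPKM, cannot change a sign. With *Smad2* slightly higher and *Smad3* lower, the ratio of *Smad3* to *Smad2* FPKM was 2.29 for CTRL, 1.85 with GDF15 and 1.76 with TGF-β. Their sum was 22.8, 22.2 and 21.0 FPKM.

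*Smad6* and *Smad7* encode the inhibitory Smads and had lower levels than *Smad2*, *Smad3* and *Smad4* in each library. *Smad7* (chromosome 18, 75367529 to 75395935, plus strand) had an FPKM of 2.58 in CTRL, against 3.28 with GDF15 and 4.36 with TGF-β. The level was highest in TGF-β and intermediate in GDF15. Its change was 0.25 with GDF15 and 0.58 with TGF-β, neither past 2-fold. The ratio of FPKM to CTRL was 1.27 (1.05 to 1.53) for GDF15 and 1.69 (1.41 to 2.03) for TGF-β. With TGF-β the change stood 2.76 local spreads above the local median, and with GDF15 1.19 spreads.

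*Smad6* (chromosome 9, 63953076 to 64022059, minus strand) is a neighbour of *Smad3* on the same strand and acts mainly on the branch of the pathway that answers to BMP ligands. It was the lowest of the 10 genes in each library, with an FPKM of 0.714 for CTRL, 1.31 with GDF15 and 1.44 with TGF-β. These levels rest on an estimated 37, 78 and 70 fragments, the fewest of any of the 10 genes. Both stimulated libraries were above CTRL and close to each other. The change was 0.43 with GDF15 and 0.51 with TGF-β on the log2(FPKM + 1) scale, which stood 2.06 and 1.99 local spreads above the local median. The ratios of FPKM themselves were 1.83 (1.22 to 2.79) and 2.01 (1.33 to 3.08). The TGF-β value is therefore past 2-fold when no pseudocount is added (1.01) and short of it with any of the pseudocounts used.

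Promoter windows of RefSeq (GRCm38.p6, 250 bases before to 50 bases after the start of the gene) were found for 5 of the 10 genes, *Ski*, *Smurf1*, *Smad3*, *Smad6* and *Smurf2*. They were searched for the palindrome GTCTAGAC, a Smad binding sequence, for the shorter Smad sequence CAGAC, for the GC-rich Smad sequence GGCGC and for TGAGTCA, to which AP-1 factors bind. All were searched on both strands, and the palindrome reads the same on each. It was found in 0.213% of the 32851 windows and in 1 of the 5 here, that of *Smad6*, at chr9:64022056-64022063. There it starts 4 bases before the annotated start site and runs across it. The stretches of the *Smad6* and *Smad3* windows from 100 bases before the start site to 10 bases after it are shown on the minus strand, 5′ to 3′, with the palindrome in capitals. The first is shown for this match and the second, from the neighbouring gene, for comparison as the 1 window of the 5 with none of the sequences searched.
Smad6, chr9:64022050-64022159: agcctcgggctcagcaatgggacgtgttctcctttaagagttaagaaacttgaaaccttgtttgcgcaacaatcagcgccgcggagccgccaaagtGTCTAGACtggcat
Smad3, chr9:63757985-63758094: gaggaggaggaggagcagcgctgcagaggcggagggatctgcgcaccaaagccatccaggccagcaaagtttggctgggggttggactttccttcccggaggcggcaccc
CAGAC, present in 49.6% of all windows, was found in those of *Smurf1* and *Smurf2*. GGCGC, present in 36.9%, was found in those of *Smad6*, *Ski*, *Smurf1* and *Smurf2*. TGAGTCA (5.20%) was found in 0 of the 5. These matches describe the letters of the windows and do not show binding. The palindrome was also held by windows of other genes, and 13 genes with it had an average FPKM of 1 or more. Their median changes were -0.09 with GDF15 and 0.02 with TGF-β, with 5 and 7 of 13 above 0, beside 44.4% and 37.2% of all genes at that level. The 0 of 13 past 2-fold are too few genes to set against the shares of all genes that are.

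The Ski corepressors differed from each other in level and in change. *Ski* (chromosome 4, 155154075 to 155222592, minus strand) was the most highly expressed of the 10 genes in each library, with an FPKM of 35.8 in CTRL, against 38.4 with GDF15 and 37.4 with TGF-β. Its changes of 0.10 and 0.06 were among the smallest. *Skil* (chromosome 3, 31095058 to 31122577, plus strand) was far below *Ski* in CTRL per length. It rose by 1.04 with GDF15 and by 1.52 with TGF-β, from 297 estimated fragments in CTRL to 856 and 1023. The ratio of FPKM to CTRL was 2.48 (2.17 to 2.84) for GDF15 and 3.62 (3.18 to 4.14) for TGF-β, and the TGF-β library was 1.46-fold (1.33 to 1.60) above the GDF15 library. The changes stood 4.85 and 6.79 local spreads above the local median. *Skil* made up 6.40% of the summed FPKM of *Ski* and *Skil* for CTRL, 13.6% with GDF15 and 19.2% with TGF-β.

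*Pmepa1* (chromosome 2, 173224458 to 173276533, minus strand) showed the largest change of the 10 genes in each of the 3 comparisons. An estimated 123 fragments in CTRL compared with 548 in GDF15 and 863 in TGF-β. It rose by 1.43 with GDF15 and by 2.27 with TGF-β, and the ratios of FPKM to CTRL were 3.81 (3.13 to 4.67) and 7.34 (6.07 to 8.94). The changes stood 6.91 and 9.79 local spreads above the local median. Between the stimulated libraries the change was 0.84, short of 2-fold, with a ratio of 1.93 (1.73 to 2.15). Among increases, *Pmepa1* ranked 14th with GDF15 and 16th with TGF-β among the 9226 genes with an average FPKM of 1 or more, and *Skil* 28th and 33rd.

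**Figure D2:**
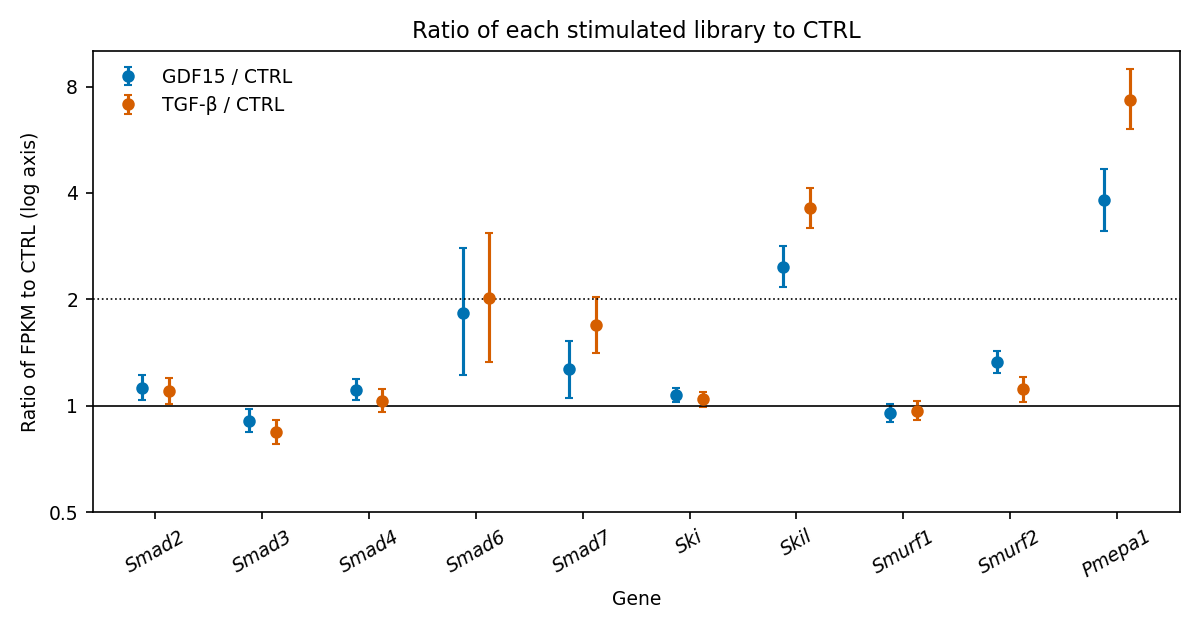
Ratio of FPKM to CTRL of the 10 genes on a log axis, for GDF15 (blue) and TGF-β (orange). Bars are 95% counting intervals, the solid line marks no difference and the dotted line 2-fold. The intervals of *Skil* and *Pmepa1* lie wholly above 2-fold for both stimuli, and those of *Smad6* are the widest.

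The Smurf ubiquitin ligases had high levels, with small changes of *Smurf1* and a larger change of *Smurf2* with GDF15. *Smurf1* (chromosome 5, 144876495 to 144965847, minus strand) had an FPKM of 21.6 in CTRL, against 20.6 with GDF15 and 20.9 with TGF-β. Its changes were -0.06 and -0.04, and the counting intervals of both ratios, 0.955 (0.900 to 1.01) and 0.969 (0.911 to 1.03), include 1. *Smurf2* (chromosome 11, 106820066 to 106920715, minus strand) had its highest level in GDF15, with an FPKM of 12.7 for CTRL, 16.8 with GDF15 and 14.1 with TGF-β. The change with GDF15 was 0.38, or 2.06 local spreads above the local median, with a ratio of 1.33 (1.23 to 1.43). That with TGF-β was 0.14, and the TGF-β library was below the GDF15 library with a ratio of 0.838 (0.780 to 0.901) and a change of -0.24. None of these passed 2-fold. The ratio of *Smurf1* to *Smurf2* FPKM was 1.71 for CTRL, 1.23 for GDF15, with TGF-β in between. The exons of *Smurf2* overlap the miRNA gene *Gm27322* by 58 bases, whereas the other 9 genes share no 50-base sequence with another gene on their strand.

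**Figure D3:**
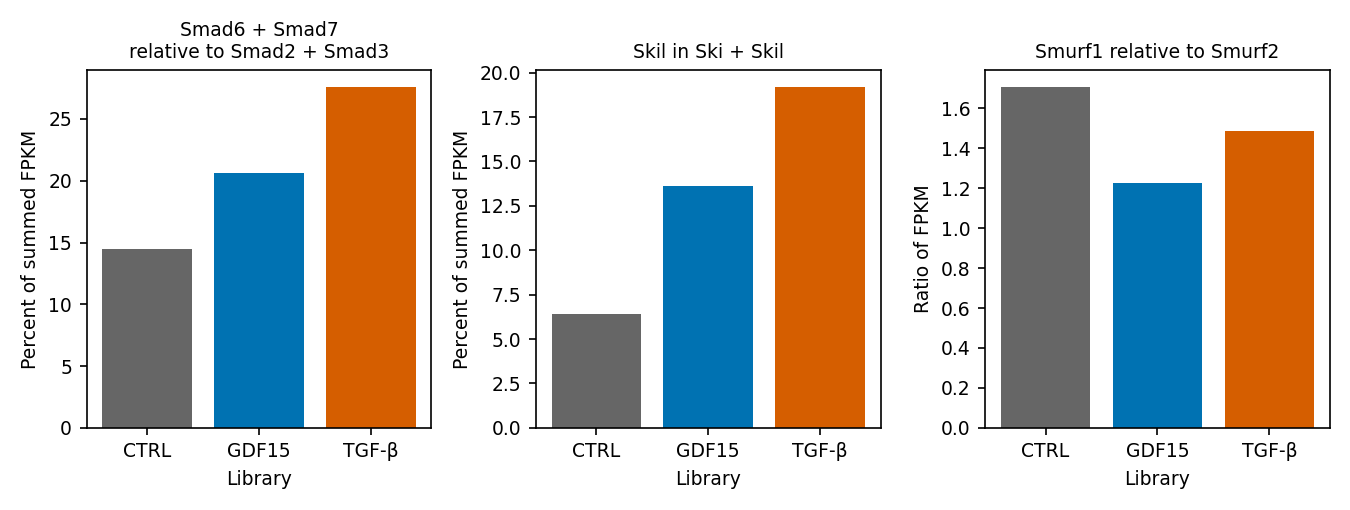
Balance within pairs of genes in the 3 libraries. Bars are values of single libraries, from summed FPKM in percent (left and middle) and as a ratio of FPKM (right). The inhibitory Smads amounted to 14.5% of the receptor-activated Smads in CTRL and 27.6% in TGF-β, *Skil* to 6.40% of *Ski* and *Skil* in CTRL and 19.2% in TGF-β, and the ratio of *Smurf1* to *Smurf2* was lowest in GDF15.

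The plot of balance within pairs sets these genes side by side. The summed FPKM of *Smad6* and *Smad7* was 3.30 in CTRL, against 4.58 with GDF15 and 5.80 with TGF-β, which was 14.5%, 20.6% and 27.6% of the sum of *Smad2* and *Smad3*. The inhibitory Smads thus remained well below the receptor-activated Smads at the RNA level in each library.

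In CTRL the order of levels was *Ski*, *Smad4*, *Smurf1*, *Smad3*, *Smurf2*, *Smad2*, *Smad7*, *Skil*, *Pmepa1* and *Smad6*, from the highest to the lowest. Of neighbours in this order, the counting intervals overlapped for *Smad7* and *Skil* only. *Pmepa1* moved from place 9 in CTRL to place 8 in GDF15 and place 6 in TGF-β, where it was above *Smad2* and *Skil*. *Skil* moved from place 8 to place 7 in both stimulated libraries and overtook *Smad7*, and in TGF-β also *Smad2*. *Smurf2* was above *Smad3* in both stimulated libraries. The intervals of *Skil* and *Pmepa1* overlapped in GDF15, and those of *Smurf2* and *Smad3* in TGF-β. The top 3 were the same in all libraries.

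Counted over the 10 genes, 2 passed 2-fold with GDF15 (*Skil* and *Pmepa1*, 20%, or only *Pmepa1* with the length trend removed), where 45 of all 15554 genes (0.289%) did. With TGF-β again 2 of 10 passed, beside 142 of all genes (0.913%), and between TGF-β and GDF15 0 of 10, beside 16 (0.103%). All 10 genes had an average FPKM of 1 or more. Of the 9226 genes at that level, 44 passed with GDF15, 137 with TGF-β and 15 between the stimulated libraries. The shares of all 15554 genes are therefore lower than those of genes at this level. The comparisons with GDF15 and with TGF-β share the CTRL library, so a deviation of that library enters both. Changes more than 2 local spreads above the local median were seen for 4 of 10 with GDF15 (*Smad6*, *Skil*, *Smurf2* and *Pmepa1*), beside 3.62% of the 9226 genes with an average FPKM of 1 or more. *Smad6* reached this level only through the stimulated libraries, in which it was higher, so its count here is no support. *Smurf2* was just past the limit (2.06) and fell below 2 spreads at matched transcript length. With TGF-β they were seen for 3 of 10 (*Smad7*, *Skil* and *Pmepa1*), beside 5.54%. The same 3 genes were more than 2 local spreads above the local median in TGF-β against GDF15, beside 5.43%. These comparisons share the TGF-β library, so a deviation of that library enters both. Changes as far below it were seen for 0 of 10 in any comparison, beside 3.25% with GDF15, 4.36% with TGF-β and 3.82% between the stimulated libraries.

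Values of all 10 genes, *Skil* and *Pmepa1* included, were summarised by their sign and median. With GDF15, 8 of 10 changes were above 0 and the median was 0.20, whereas the median over the 9226 genes was -0.03 and 44.4% of them were above 0. With TGF-β, 8 of 10 were above 0 with a median of 0.13, beside -0.07 and 37.2%. Between TGF-β and GDF15, 5 of 10 were above 0 with a median near 0, beside 39.7% and -0.04, and the values ranged from -0.24 for *Smurf2* to 0.84 for *Pmepa1*. The median local spread of the 9226 genes was 0.21, 0.22 and 0.15 in these comparisons, a measure of single genes and not of a median over a set.

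**Figure D4:**
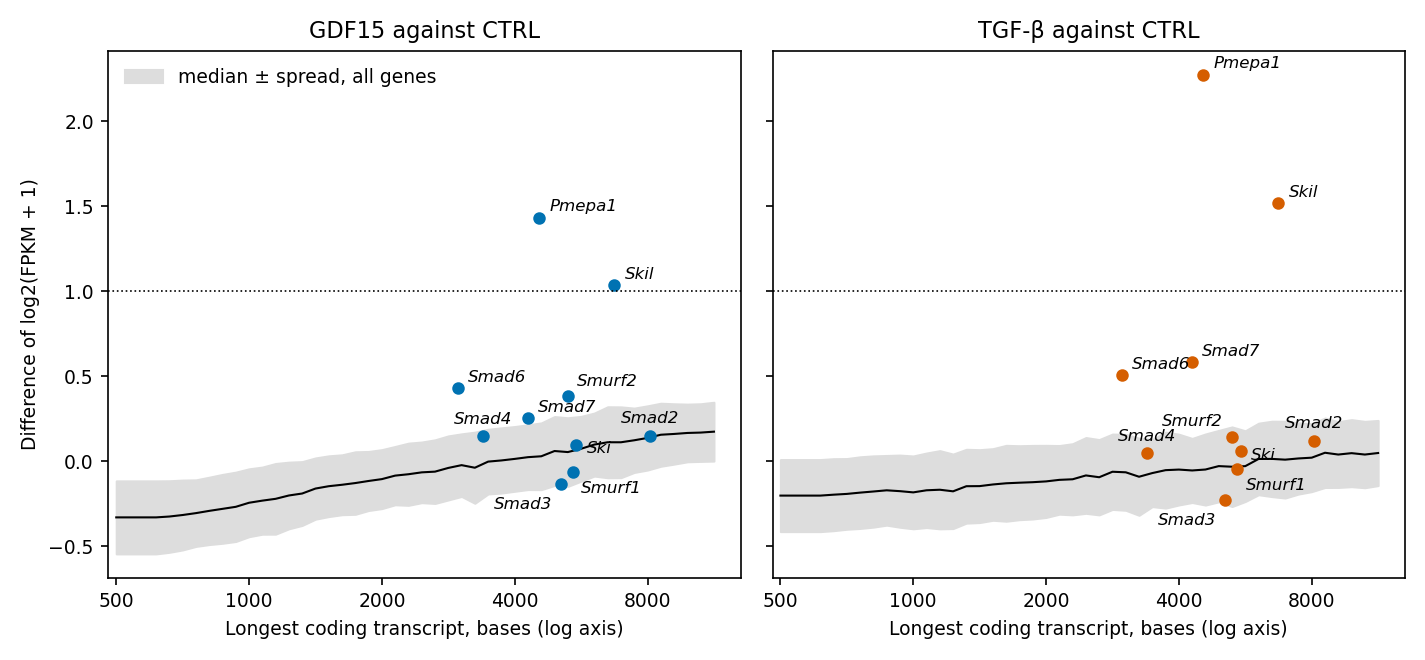
Change of the 10 genes with GDF15 (left) and TGF-β (right), as the difference of log2(FPKM + 1), against longest coding transcript length in bases on a log axis. The line is the median and the band the spread over the genes nearest in length, and the dotted line marks 2-fold. The line climbs with length, more so with GDF15, and *Skil* and *Pmepa1* lie far above the band in both panels.

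Transcripts of these genes are long, from 2971 bases for *Smad6* to 8089 bases for *Smad2*, and the change with GDF15 moved with transcript length across all genes. Genes nearest in length had a median change of 0.14 for *Smad2*, which equals nearly all of its own change with GDF15 and leaves 0.01. For *Skil*, the second longest at 6717 bases, it was 0.11, and the change less this median was 0.93 with GDF15, short of 2-fold, and 1.51 with TGF-β. For *Pmepa1* (4538 bases) the values were 1.40 and 2.32, for *Smad7* (4278 bases) 0.23 and 0.63, and for *Smad6* 0.45 and 0.57. *Smurf2* (5290 bases) was left with 0.33 with GDF15, which is less than 2 spreads of genes of like length (0.20 each). The median over the 10 genes after this step was 0.20 with GDF15, 0.15 with TGF-β and 0.09 between TGF-β and GDF15, with 7 of 10 above 0 in the last. Removal of a trend with GC content as well left *Skil* at 0.80 with GDF15 and 1.39 with TGF-β.

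**Figure D5:**
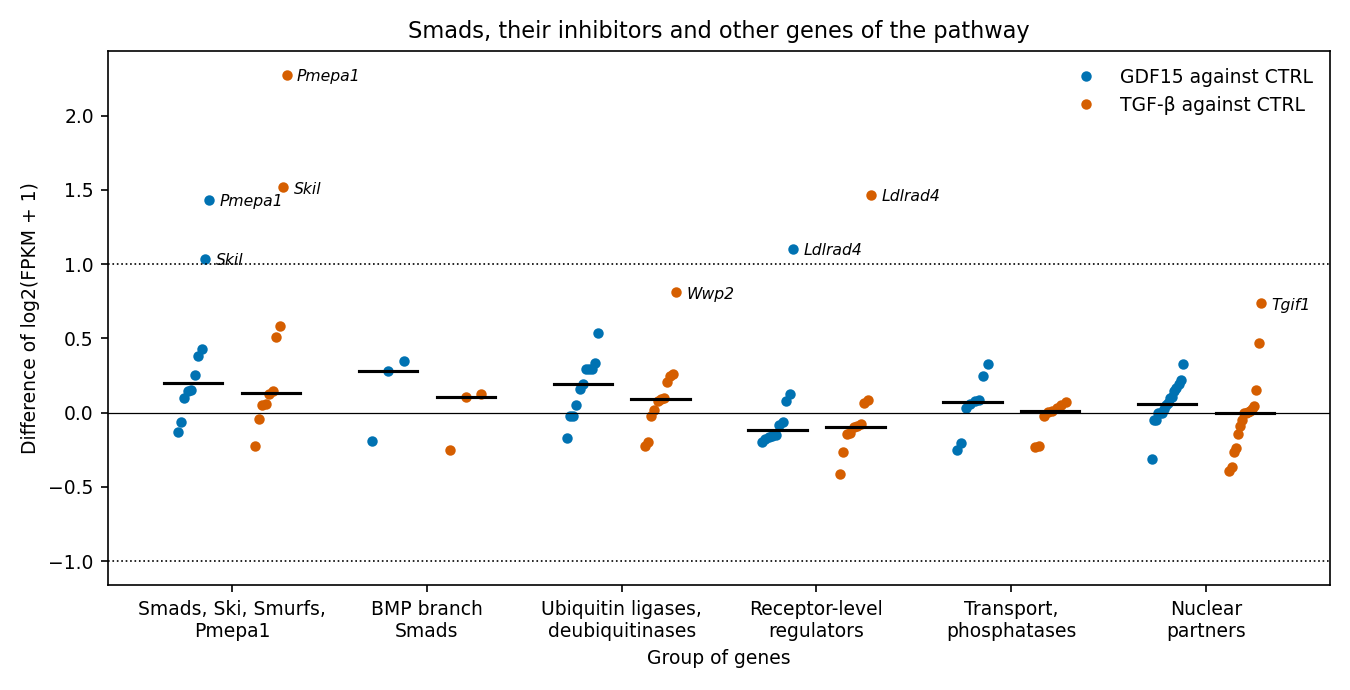
Change with GDF15 (blue) and TGF-β (orange), as the difference of log2(FPKM + 1), for the 10 genes (left) and for 5 groups of other genes of the pathway. Points are genes, horizontal bars are group medians and dotted lines mark 2-fold. *Ldlrad4* is the only gene of these groups past the line, while the group medians range from -0.12 to 0.28.

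Beyond these 10 genes, a list of 49 other genes of the Smad pathway was examined, of which 48 were found in the table (*Zfyve9* was not analysed here) and 43 had an average FPKM of 1 or more. Only *Ldlrad4*, listed under an older symbol, passed 2-fold, with GDF15 (1.10) and with TGF-β (1.47). It encodes a membrane protein that, like its relative Pmepa1, binds Smad2 and Smad3. Its FPKM was 6.16 for CTRL, 14.4 with GDF15 and 18.8 with TGF-β. The count was therefore 1 up and 0 down of 48 with each stimulus, beside 0.289% of all genes with GDF15 and 0.913% with TGF-β in either direction, and 0 between them, beside 0.103%. At an average FPKM of 1 or more, it was 1 of 43 with each stimulus, beside 44 of 9226 genes with GDF15 and 137 with TGF-β. Between the stimulated libraries it was 0 of 43 at that level, beside 15 of 9226. The medians of the list were 0.06 with GDF15, 0.00 with TGF-β and -0.06 between them, with 29, 25 and 14 of 48 above 0. Over the 9226 genes the medians were -0.03, -0.07 and -0.04, and 44.4%, 37.2% and 39.7% were above 0. With the length trend removed, the medians of the list were 0.01, 0.03 and near 0. Over all 15473 matched genes they were 0.03, 0.05 and 0.02. These include genes below an average FPKM of 1, on which the trend was not fitted, so the list is not set against them.

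Among ubiquitin ligases and deubiquitinases (11 genes, median change 0.19 with GDF15 and 0.09 with TGF-β), *Wwp2*, a ligase related to the Smurfs, had the largest increase with TGF-β. Its FPKM was 16.4 in CTRL, against 20.4 with GDF15 and 29.6 with TGF-β, with changes of 0.29 and 0.81. *Stub1*, whose product ubiquitinates chaperone-bound proteins, had the lowest change with TGF-β (-0.23), at 59.7, 52.9 and 50.9 FPKM. *Usp9x*, a deubiquitinase that acts on Smad4, had its highest level in GDF15 (12.2, 18.04 and 14.6 FPKM, with changes of 0.53 and 0.24). Less the median of genes of like length, its change with GDF15 was 0.36. The BMP branch Smads *Smad1* and *Smad5* were at 6.80, 8.46 and 7.53 FPKM and at 12.9, 16.7 and 14.0 FPKM in the order CTRL, GDF15 and TGF-β, and neither was more than 2 local spreads from the local median. *Smad9*, the third of this branch, was highest in CTRL, at 0.620, 0.417 and 0.358 FPKM, with changes of -0.19 and -0.25.

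In the nuclear group (16 genes, medians 0.06 and near 0) the largest increase with TGF-β was that of *Tgif1*, a homeodomain corepressor of Smads, with an FPKM of 55.6 for CTRL, 64.8 with GDF15 and 93.3 with TGF-β and changes of 0.22 and 0.74. *Klf10*, a zinc finger repressor known as a TGF-β early gene, had 19.7, 25.0 and 27.6 FPKM and changes of 0.33 and 0.47. Both were more than 2 local spreads above the local median with TGF-β, as were *Wwp2* and *Ldlrad4*, which makes 4 of the 43 genes of the list with an average FPKM of 1 or more, beside 5.54% of all genes at that level. With GDF15, 2 of 43 (*Usp9x* and *Ldlrad4*) reached that distance, beside 3.62%. *Klf11*, a relative of *Klf10*, had the lowest change of the group with TGF-β (-0.39), at 5.27, 5.04 and 3.78 FPKM. *Zeb1*, an E-box binding repressor, was more than 2 local spreads below the local median between TGF-β and GDF15 (-0.36). Its FPKM was 25.9 in CTRL, against 27.8 with GDF15 and 21.4 with TGF-β. *Zeb1* was the 1 of 43 genes as far below in this comparison, beside 3.82% of all genes at that level. As far above were 3 of 43 (*Wwp2*, *Ldlrad4* and *Tgif1*), beside 5.43%.

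The receptor-level regulators, with *Ldlrad4* included, had 3 of 10 changes above 0 with each stimulus (medians -0.12 and -0.09), beside the shares of all genes above 0 given for the list. *Dab2*, an endocytic adaptor, had the lowest change with TGF-β (-0.41) at 95.0, 84.7 and 71.2 FPKM. Smad transport and phosphatase genes (8 genes, medians 0.07 and 0.01) ranged with TGF-β from a change of 0.07 for *Ppm1a*, a Smad phosphatase, at 25.0, 26.5 and 26.3 FPKM to -0.23 for *Ranbp3*, a nuclear export factor for Smad2 and Smad3, at 24.5, 21.2 and 20.7 FPKM. With GDF15 the changes of this group ran from -0.25 to 0.33.

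The genes nearest to *Skil* and *Pmepa1* in their pair of changes were sought over the 3 libraries, among genes with an average FPKM of 1 or more. Nearest to *Skil* was *Ltbp2*, a matrix protein related to those that bind latent TGF-β, with an FPKM of 19.4, 40.7 and 57.8 and changes of 1.03 and 1.52, at a Euclidean distance of 0.0087. *Ldlrad4* followed at a distance of 0.0823, and *Raet1b*, one of a family of near-identical genes, at 0.0876. *Raet1b* was near 0 in CTRL and reached the required level only through the stimulated libraries, so its distance depends on the pseudocount and is not read as a likeness. Nearest to *Pmepa1* were *Tagln*, a smooth muscle cytoskeletal gene, at a distance of 0.119 (changes 1.53 and 2.21), and *Wisp2*, a secreted CCN protein, at 0.228 (changes 1.24 and 2.39). Within a distance of 0.5 there were 30 genes for *Skil* and 12 for *Pmepa1*. These are descriptions over 3 libraries, and a likeness of 2 changes is shared by many genes.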

How the data were processed

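The authors pooled RNA of 3 samples per treatment, prepared stranded mRNA libraries, sequenced them as single-end reads of 50 bases and deposited FPKM of protein coding genes. The submitters' processing notes name TopHat 1.3.2, Bowtie 0.12.9, Cufflinks 2.0.2 and the mm10 build. The gene annotation and the use of strand in counting are not given in the sources used here. Samples were assigned by their title (CTRL) or stimulation label, and columns by the treatment in their heading; the cell line part of the headings counts upward after NIH3T3 and differs from the titles.

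From the deposited FPKM, differences of log2(FPKM + 1) were computed for all 15554 rows. The local spread of a gene is the median absolute deviation of the changes, multiplied by 1.4826, in a window of 501 genes of like mean log2(FPKM + 1). Coordinates and transcript lengths came from GENCODE (GRCm38), with 15473 rows matched. Fragments were estimated for an assumed fragment length of 200 bases, and are less certain for genes with several transcripts. Ratio intervals are exact binomial intervals on these numbers. The scripts for calls and spreads were checked on simulated data with known changes, which is no test between treatments.

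The members and gene lists were chosen with earlier results of these data known. Named are the 10 genes, pathway genes past 2-fold, the highest and lowest change with TGF-β in each group (average FPKM of 1 or more), and for each called member the 3 nearest genes, of which 1 is not reported here. Pathway genes beyond 2 local spreads (*Usp9x*, *Klf10* and *Zeb1*) and *Smad9* were named after their values were seen. Protein sequences were not used. The alternatives were pseudocounts of 0.5, 0.1 and none, a minimum mean FPKM of 1, upper quartile scaling, and removal of trends with expression, length, or length and GC content. Computation used scipy 1.17.1, numpy 2.4.6 and pandas 2.3.3 under Python 3.11.15, and plots were made with matplotlib 3.10.9.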

Additional observations from a re-analysis of the deposited data

How the results depend on the processing

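No paired analysis was possible because 1 pooled library stands for each treatment, and no library could be left out. Of the 10 genes, the number past 2-fold with GDF15 went from 2 to 1 with the length trend removed and to 1 with the length and GC trends removed, since *Skil* then stood at 0.93 and 0.80. It was 2 with TGF-β under each of the 8 alternatives except without a pseudocount, where *Smad6* joined at 1.01. In that setting 7.12% of 11081 genes were past 2-fold with TGF-β. *Pmepa1* was past 2-fold in all 9 settings, from 1.40 to 1.93 with GDF15 and from 2.27 to 2.88 with TGF-β. A minimum mean FPKM does not alter the change of a single gene, so that setting repeats the reported value and is no separate check. At a pseudocount of 0.1, the pathway list had 2 of 48 genes past 2-fold with TGF-β, beside 3.14% of all genes. Between TGF-β and GDF15 it had 1 of 48, beside 1.46%. Of 240 single values of the 10 genes under alternatives, 225 stayed within the local spread of the reported value, 15 moved further and 0 called values changed sign. The 225 include the values under the minimum mean FPKM, which repeat the reported ones and could not move. Changes near 0 did cross it, such as *Smad2* with GDF15 at -0.05 after removal of length and GC trends. Over the genes kept in each setting, from 9226 to 15554, the count past 2-fold ranged from 39 to 589 with GDF15 (0.252% to 5.32%). With TGF-β it ranged from 137 to 789 (0.887% to 7.12%). Both were highest without a pseudocount. At the estimated depth, *Smad6* limits precision most, with 37 fragments in CTRL.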
